A study of Mus musculus with 12 samples.

Results

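Hyaluronan is a long sugar polymer of the extracellular matrix, and 9 genes that build it, cut it or bind it were followed in a mouse fibroblast line and in clones of it that carry the label AEBP1 KO. They are the synthases Has1, Has2 and Has3, the degrading proteins Cemip, Hyal1 and Hyal2, the receptor Cd44 and the hyaluronan-binding proteoglycans Vcan (versican) and Acan (aggrecan). They were chosen by symbol from the 48795 genes of the deposited table, and all 9 were found there. Enough reads for a test were present for 8 of them, among 14704 genes tested in all, and Has1 was the member left out.

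The cells were NIH3T3, an immortalised mouse fibroblast line. The groups were 3 clonal lines with the genotype AEBP1 KO, named F5, G5 and H7, each sampled at passages 7, 8 and 9, and the WT parental line sampled at passages 6, 7 and 8, which gave 12 libraries with 3 in each group. All lines grew in DMEM/F12 (1:1) medium with 10% FBS, and 100 ng of total RNA was depleted of ribosomal RNA and made into stranded, paired-end libraries. A clone grows from 1 cell while the parental line was not cloned, so the effects of cloning and of the loss of Aebp1 cannot be told apart here. The labels do not say whether the passages were separate cultures, and the p-values therefore describe the spread among these libraries, which may be technical.

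Hyaluronan is polymerised at the cell membrane by the HAS enzymes and extruded as it grows. CEMIP and the hyaluronidases cut the long chain, and CD44 ties what remains to the cell surface. Versican and aggrecan carry a hyaluronan-binding domain at one end and chondroitin sulfate chains along the core, and versican is the usual large proteoglycan of fibroblast matrix while aggrecan is that of cartilage.

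Library totals lay between 22088714 and 31329755 estimated counts. Aebp1, the gene targeted in the clones, stood at 92.8 to 109.9 TPM (transcript abundance corrected for length and library size) in F5, 62.4 to 70.0 TPM in G5 and 68.4 to 84.0 TPM in H7, against 249.7 to 316 TPM in the parental line. Its log2 fold change by edgeR's quasi-likelihood test was −1.52 in F5 (adjusted p = 3.6e-05), −2.11 in G5 (adjusted p = 9.24e-06) and −1.91 in H7 (adjusted p = 3.26e-06), so its RNA was lower in every clone but present. All 10 fibroblast markers examined reached 1 TPM, with a summed level of 9625 to 12279 TPM in the clone libraries and 10951 to 12061 TPM in the parental libraries. Summed markers of other cell types stayed at 0.806 to 1.77 TPM (epithelial), 4.76 to 7.54 TPM (immune), 0.123 to 0.740 TPM (endothelial) and 0.160 to 0.428 TPM (chondrocyte) in clone libraries, against 0.714 to 1.32, 4.50 to 6.33, 0.134 to 0.300 and 0.225 to 1.24 TPM in parental libraries. The parental library of passage 7 held the highest Cemip and the lowest Cd44 of the 12, and the values of these 9 genes without it are given where it changes their call. Epcam, Adgre1, Cd3e, Kdr and Col9a1 were at 0 in every library. In bulk RNA, fewer cells of a kind and less RNA per cell cannot be told apart.

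Averaged over the 12 libraries, Vcan was the most abundant member at 212 TPM, followed by Cd44 at 109 TPM and Cemip at 73.3 TPM. Has2 stood at 16.6 TPM, Hyal2 at 13.2 TPM and Hyal1 at 3.06 TPM, and Has3 at 0.795 TPM, Acan at 0.148 TPM and Has1 at 0.0900 TPM were the lowest. On this average the fibroblasts carried 1 main synthase transcript, a receptor, a large proteoglycan and a depolymerase, with the cartilage proteoglycan near the detection limit. Cemip ran from 4.20 to 327 TPM over the libraries. At passage 7 of F5 and G5 it lay below Has2, at 4.20 and 6.33 TPM against 10.2 and 13.9 TPM. TPM is corrected for transcript length, so these levels can be set side by side between genes.

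**Figure D1:**
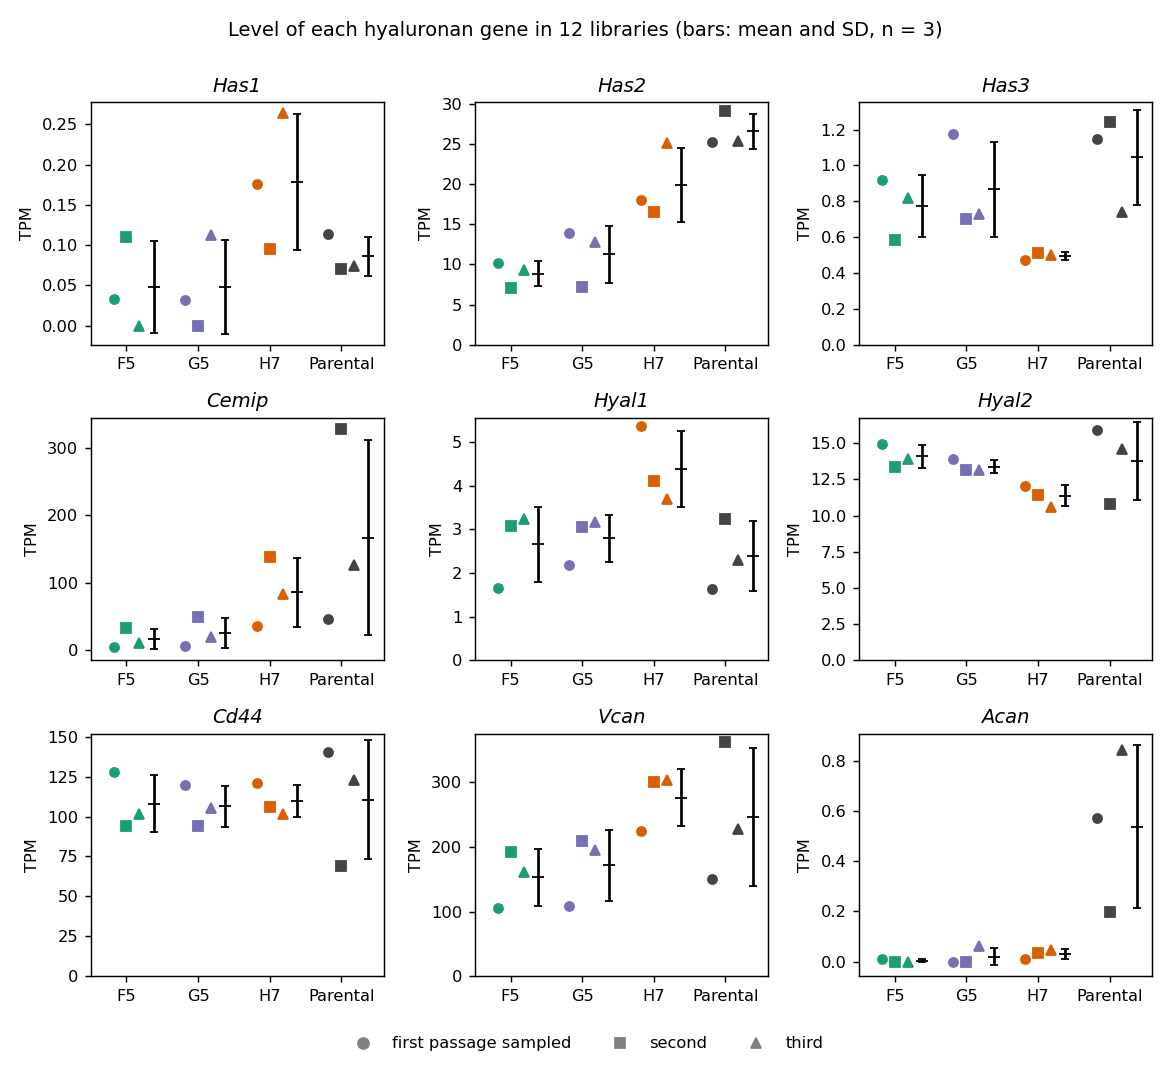
TPM (y axis, a linear scale of its own in each panel) of the 9 genes in F5, G5, H7 and the parental line; circles, squares and triangles are passages 1, 2 and 3 in the order sampled, and the bars are the mean and SD (n = 3). Has2 was between 7.09 and 10.2 TPM in F5 against 25.3 to 29.1 TPM in the parental line, and Acan was at or below 0.0602 TPM in all clone libraries.

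Across the mean of the 3 clones, 3 of the 8 tested members were lower than in the parental line and 0 were higher by edgeR's quasi-likelihood test at an adjusted p under 0.05; among all genes tested, 19.0% were called in this comparison, 8.55% higher and 10.5% lower. The 3 were Has2, the main synthase, Cemip, which depolymerises hyaluronan, and Acan. Acan passed the filter on low counts through the parental libraries alone, so its place in these counts was set by the filter and it is described below by its counts. Acan included, F5 had 3 members called and G5 had 2, all lower, and H7 had 2 lower and 1 higher. The shares of all genes called were 14.3% in F5 (6.88% higher, 7.37% lower), 13.1% in G5 (6.54% higher, 6.56% lower) and 19.6% in H7 (9.64% higher, 9.92% lower).

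The synthases come first. Has2, on chromosome 15 from 56665627 to 56694539 on the minus strand of GRCm38, gave 10.2, 7.09 and 9.25 TPM in F5 at passages 7, 8 and 9, and 13.9, 7.19 and 12.7 TPM in G5. In H7 it gave 18.03, 16.5 and 25.1 TPM, and in the parental line 25.3, 29.1 and 25.3 TPM at passages 6, 7 and 8. In TPM every clone library lay below every parental library, though narrowly, at 25.13 TPM for the H7 library of passage 9 against 25.25 TPM for the parental library of passage 6. On the scale of CPM (counts corrected for library size alone) that same library, at 60.8 CPM, lay just above 2 parental libraries at 60.2 and 60.6 CPM. In CPM, all 9 clone libraries lay below all 3 parental libraries for 5.16% of tested genes, and Has2 was not among them. The share in TPM was not counted.

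The means of Has2 were 8.84 ± 1.58 TPM in F5, 11.3 ± 3.57 TPM in G5, 19.9 ± 4.62 TPM in H7 and 26.6 ± 2.19 TPM in the parental line (SD, n = 3 each). Has2 fell by 1.11 on the log2 scale in the mean of the clones (SE 0.18, edgeR adjusted p = 0.00167), by 1.61 in F5 (SE 0.24, adjusted p = 0.00143) and by 1.30 in G5 (SE 0.23, adjusted p = 0.00434). In H7 the log2 fold change was −0.41 (95% interval −0.91 to 0.09, adjusted p = 0.247), which did not pass the test. With all 9 clone libraries taken as 1 group, the change was −1.01 and its adjusted p was 0.0665. Has2os, annotated on the opposite strand over 4596 bases of Has2, had 8 to 38 counts per library and a log2 fold change of −0.35 in the mean of the clones (adjusted p = 0.479).

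The lines can be ordered by Has2 as F5, G5, H7 and parental, from low to high. The neighbours F5 and G5 did not differ beyond their spread (log2 difference −0.31, 95% interval −0.82 to 0.21, edgeR adjusted p = 1), and neither did H7 and the parental line. Has2 was lower in F5 than in H7 by a log2 difference of −1.20 (SE 0.23, adjusted p = 0.00476) and lower in G5 than in H7 by −0.89 (SE 0.23, adjusted p = 0.0214). The G5 to H7 difference lost its call without the G5 library of passage 8 (−0.68, adjusted p = 0.0516) or the H7 library of passage 9 (−0.66, adjusted p = 0.0955).

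Has2 lies on a chromosome that moved as a whole in H7. Over the 534 genes tested there, the log2 fold changes centred (median) on 0.45 in H7, 0.06 in F5 and 0.04 in G5. Only 2.06% of those genes lay below Has2 in F5, 2.62% in G5 and 6.55% in H7. With each chromosome's median removed from each clone, Has2 in H7 stood at −0.86 (adjusted p = 0.029), and the G5 to H7 difference was −0.49 (adjusted p = 0.224). Whether chromosome copy number takes part in these values was not tested.

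**Figure D2:**
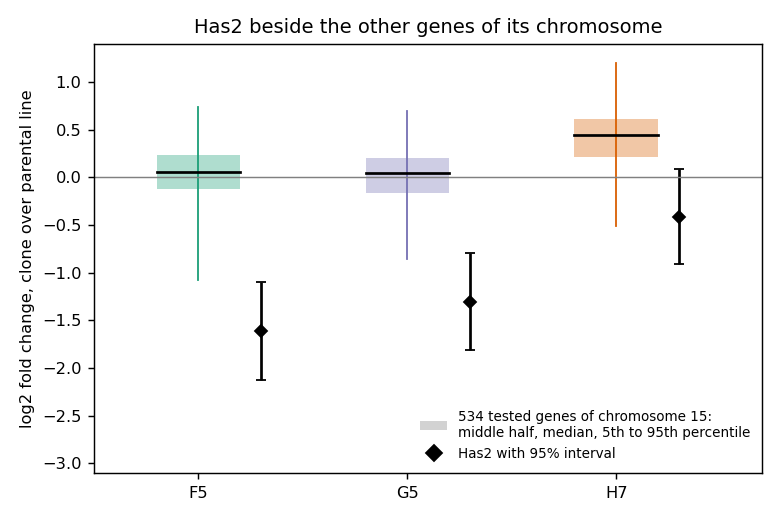
The log2 fold change of clone over parental line (y axis) for the 534 tested genes of chromosome 15 in F5, G5 and H7 (box: interquartile range, line in the box: median, thin line: 5th to 95th percentile), with Has2 as a diamond and its 95% interval. The box sits at a median of 0.45 in H7 and near 0 in F5 and G5, and Has2 lies below the box in every clone.

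Has3 (chromosome 8, plus strand, 106870242 to 106884566) makes shorter hyaluronan chains than its relatives in cell culture. It gave 0.920, 0.585 and 0.820 TPM in F5, 1.17, 0.699 and 0.727 TPM in G5, 0.471, 0.511 and 0.501 TPM in H7 and 1.15, 1.24 and 0.742 TPM in the parental line. The 3 H7 libraries lay close together and below all others, and the share of all genes that separate this way was not counted. Has3 was lower in H7 with a log2 fold change of −0.83 (SE 0.23, edgeR adjusted p = 0.0285), from 38 to 43 counts per H7 library against 56 to 77 per parental library. This call was lost without any of the H7 libraries or without the parental library of passage 6 or 7 (adjusted p of 0.0593 to 0.0907), and without the middle passages (−0.72, adjusted p = 0.125). In the mean of the clones Has3 stood at −0.42 (95% interval −0.83 to −0.02, adjusted p = 0.132), in F5 at −0.29 (adjusted p = 0.449) and in G5 at −0.16 (adjusted p = 0.7).

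Has3 shares 704 bases with Chtf8, a gene on the opposite strand with 2170 to 3479 counts per library, and the sources do not say whether counting used strand. Chtf8 itself had a log2 fold change of −0.01 in H7 (adjusted p = 0.948).

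Has1, on chromosome 17 from 17843323 to 17855205, had 32 counts over all 12 libraries. There were 5 counts in F5, 4 in G5, 16 in H7 and 7 in the parental line. The ratio of H7 to the parental line was 2.07, with a 95% counting interval of 0.807 to 5.96, and the F5 and G5 ratios were 0.600 (0.150 to 2.20) and 0.534 (0.115 to 2.10). No difference of a clone from the parental line was detectable in Has1 at this depth, and the clones were not compared with each other for Has1. Has2 made up 91.1% to 91.9% of summed synthase TPM in F5, 91.1% to 93.8% in G5, 96.5% to 97.0% in H7 and 95.2% to 96.9% in the parental line.

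The degrading proteins follow. Cemip, on chromosome 7 from 83932857 to 84086502 on the minus strand, is needed for the hyaluronan depolymerisation seen in human skin fibroblasts. It gave 4.20, 32.7 and 10.8 TPM in F5 and 6.33, 49.4 and 19.7 TPM in G5. It gave 35.8, 138 and 82.8 TPM in H7, against 46.3, 327 and 126 TPM in the parental line. The F5 libraries all lay below the parental ones, and the share of all genes for which this holds was not counted. The G5 libraries overlapped the parental ones by 1 library, and 2 of the H7 libraries lay inside the parental range and 1 lay below it.

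The Cemip means were 15.9 ± 14.9 TPM in F5, 25.1 ± 22.03 TPM in G5, 85.7 ± 51.4 TPM in H7 and 167 ± 145 TPM in the parental line (SD, n = 3 each). The parental mean rests largely on the library of passage 7, at 327 TPM. Cemip fell by 2.38 on the log2 scale in the mean of the clones (SE 0.66, edgeR adjusted p = 0.0293) and by 3.41 in F5 (SE 0.98, adjusted p = 0.0402). In G5 its log2 fold change was −2.78 (SE 0.95, adjusted p = 0.0801), and in H7 −0.94 (95% interval −2.91 to 1.03, adjusted p = 0.52). Without the parental library of passage 7 these were −1.85 in G5 (adjusted p = 0.216) and −0.0062 in H7 (adjusted p = 0.998).

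The call in the mean was lost without the parental library of passage 7, at −1.44 and adjusted p = 0.202. It was also lost without the F5 library of passage 9, the G5 library of passage 9, the H7 library of passage 7 or 9, or the parental library of passage 8 (adjusted p of 0.0514 to 0.0566), with limma on log2(TPM + 1) (−2.24, adjusted p = 0.0587) and with the 9 clone libraries as 1 group (−1.98, adjusted p = 0.162). The F5 call was lost without 6 of the 12 libraries: F5 passages 7 and 9, G5 passage 9, H7 passage 9 and parental passages 7 and 8, with values of −3.57 to −2.47 and adjusted p of 0.0582 to 0.134, with only the 6 libraries compared (−3.40, adjusted p = 0.0915) and with chromosome medians removed (−3.21, adjusted p = 0.0532). The G5 value passed the test without the parental library of passage 6 (−3.23, adjusted p = 0.0481) and with DESeq2 (−2.77, adjusted p = 0.0322). With the place in the order of passages as a block, Cemip was called lower in G5 (−2.80, adjusted p = 2.72e-06) and H7 (−0.72, adjusted p = 0.00468) as well.

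Hyal1, on chromosome 9 from 107576927 to 107581710, encodes a lysosomal hyaluronidase. It gave 1.66, 3.07 and 3.24 TPM in F5, 2.18, 3.05 and 3.17 TPM in G5 and 5.36, 4.10 and 3.69 TPM in H7, against 1.64, 3.23 and 2.30 TPM in the parental line. All H7 libraries lay above all others, and how many of all genes do the same was not counted. Hyal1 was higher in H7 with a log2 fold change of 0.92 (SE 0.29, edgeR adjusted p = 0.0478), while it stood at 0.18 in F5 (adjusted p = 0.735) and 0.22 in G5 (adjusted p = 0.684). The H7 call was lost in 9 of the 12 fits that left out 1 library, those without any H7 library, parental passage 6 or 8, or passage 8 or 9 of F5 or G5, with values of 0.71 to 1.03 and adjusted p of 0.0544 to 0.168, and with limma on log2(TPM + 1) (0.68, adjusted p = 0.0543). Naa80, which shares 2824 bases of the same strand with Hyal1, had a log2 fold change of 0.36 in H7 (adjusted p = 0.137), and the reads of the shared stretch may have been split between the genes.

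Hyal2, a neighbour of Hyal1 on chromosome 9 from 107567945 to 107572779, encodes a hyaluronidase anchored to the membrane that cuts long hyaluronan. It gave 15.0, 13.4 and 13.9 TPM in F5, 13.9, 13.1 and 13.1 TPM in G5 and 12.04, 11.5 and 10.6 TPM in H7, against 15.9, 10.8 and 14.6 TPM in the parental line. The groups overlapped, and the log2 fold change in the mean of the clones was −0.11 (95% interval −0.35 to 0.13, edgeR adjusted p = 0.516). In H7 it was −0.26 (95% interval −0.56 to 0.03, adjusted p = 0.208). Without the parental library of passage 7, Hyal2 passed the test as lower, at −0.28 in the mean of the clones (adjusted p = 0.0288) and −0.43 in H7 (adjusted p = 0.00619).

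**Figure D3:**
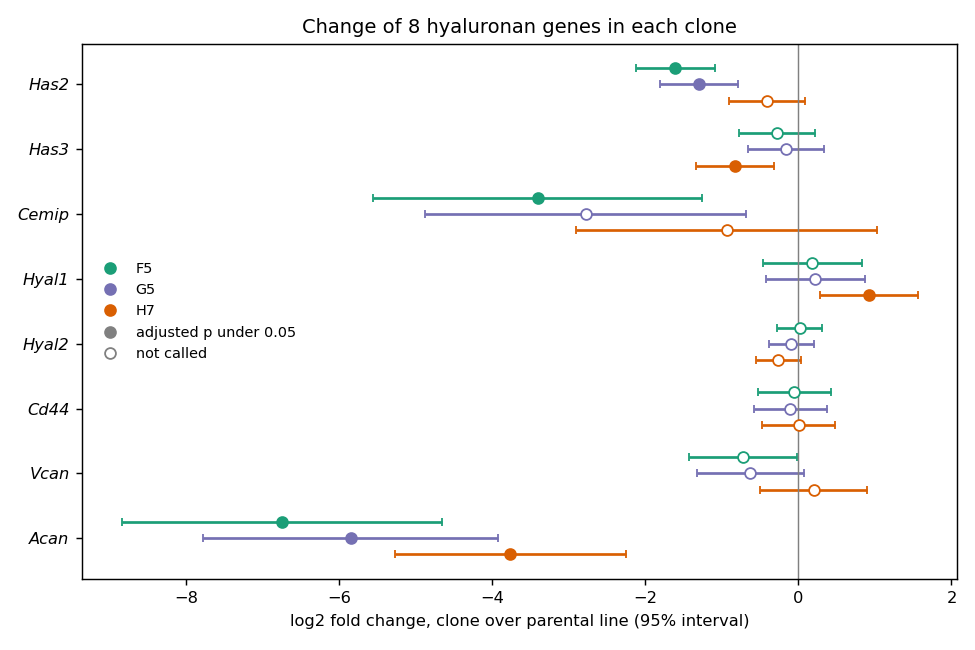
The log2 fold change of each clone over the parental line (x axis) for the 8 tested genes, with 95% intervals from edgeR; filled points passed an adjusted p of 0.05. Acan lies far to the left in every clone, at fitted values that rest on 0 to 5 counts per clone library and depend on the prior count, while the Cd44 points lie between −0.10 and 0.00 and the Hyal2 points between −0.26 and 0.02.

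Cd44, the hyaluronan receptor, lies on chromosome 2 from 102811141 to 102901665 on the minus strand. It gave 128, 94.4 and 102 TPM in F5, 120.03, 94.3 and 105 TPM in G5 and 121, 106 and 102 TPM in H7, against 140.2, 68.9 and 123 TPM in the parental line. The clone libraries lay inside the parental range. Its log2 fold change in the mean of the clones was −0.05 (95% interval −0.44 to 0.33, edgeR adjusted p = 0.873), and it stood between −0.10 in G5 and 0.00 in H7.

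The proteoglycans differed sharply in level. Vcan, on chromosome 13 from 89655312 to 89742509 on the minus strand, gave 105, 193 and 162 TPM in F5, 109, 209.9 and 196 TPM in G5 and 225, 301 and 303 TPM in H7, against 150.2, 362 and 228 TPM in the parental line. The ranges overlapped. Its log2 fold change was −0.73 in F5 (95% interval −1.43 to −0.02, edgeR adjusted p = 0.158), −0.63 in G5 (−1.33 to 0.08, adjusted p = 0.231) and 0.20 in H7 (−0.50 to 0.90, adjusted p = 0.718), none of which passed the test. In the mean of the clones it was −0.39 (adjusted p = 0.325). With the place in the order of passages as a block, Vcan was called lower in F5 (−0.69, adjusted p = 0.00187), in G5 (−0.60, adjusted p = 0.00451) and in the mean (−0.34, adjusted p = 0.0194), and with the passage number as a block in F5 (−1.15, adjusted p = 0.0407). Gm4117, annotated as antisense to Vcan over 3050 bases, had 444 to 1141 counts per library and a log2 fold change of 0.15 in the mean of the clones (adjusted p = 0.617).

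Acan (chromosome 7, plus strand, 79053483 to 79115099) was among the tested genes through its parental counts alone. Its separation from the parental line is therefore a description and not a test. It had 1, 0 and 0 counts in F5, 0, 0 and 2 counts in G5, and 1, 4 and 5 counts in H7, against 53, 17 and 55 counts in the parental line. All 9 clone libraries lay below all 3 parental libraries, as did 5.16% of the tested genes (5.49% lay above in the same way). Its level was low throughout, at no more than 0.0602 TPM in the clone libraries, against 0.572, 0.197 and 0.845 TPM in the parental libraries of passages 6, 7 and 8.

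From summed counts scaled to library size, Acan was 149-fold lower in F5 than in the parental line, with a 95% counting interval of 26.2 to 5926, which rests on 1 count in F5. It was 66.9-fold lower in G5 (18.1 to 559), on 2 counts, and 13.8-fold lower in H7 (7.25 to 29.5), on 10 counts against 125 in the parental line. Since Acan entered the fit through the group where it is high, its edgeR calls are given no weight here. Cartilage markers were low beside it. Col2a1 had 3 to 18 counts in the clone libraries, against 60, 6 and 17 in the parental libraries of passages 6, 7 and 8 (log2 fold change −1.84 in the mean of the clones, edgeR adjusted p = 0.0512). Comp had 0 to 6 counts in clone libraries and 2 to 5 in parental libraries, Matn1 had counts in 1 library, of H7, and Col9a1 was at 0 in every library. The part of these markers in the Acan values was not tested.

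Promoter sequences are shown for Cemip, the member called both in the mean of the clones and between passages. The former call was lost in 6 of the 12 fits that left out 1 library. Sequences are also shown for the 2 proteoglycans, so that the abundant versican and the scarce aggrecan can be set side by side. The sequences are the 250 bases before the RefSeq start of each gene (GRCm38.p6), 5′ to 3′ on the gene's own strand. RefSeq's table held 7 of the 9 members; Has2 and Has3 are named only. Capitals mark matches, on either strand, to the TATA box (TATAAA), the CCAAT box (CCAAT) or the GC box (GGGCGG).
Cemip, chr7:84086506-84086755, minus strand: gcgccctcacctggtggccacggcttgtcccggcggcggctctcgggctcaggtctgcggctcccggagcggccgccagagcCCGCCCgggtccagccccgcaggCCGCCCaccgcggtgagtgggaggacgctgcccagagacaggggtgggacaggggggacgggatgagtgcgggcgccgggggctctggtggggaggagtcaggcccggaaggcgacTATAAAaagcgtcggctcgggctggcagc
Vcan, chr13:89742513-89742762, minus strand: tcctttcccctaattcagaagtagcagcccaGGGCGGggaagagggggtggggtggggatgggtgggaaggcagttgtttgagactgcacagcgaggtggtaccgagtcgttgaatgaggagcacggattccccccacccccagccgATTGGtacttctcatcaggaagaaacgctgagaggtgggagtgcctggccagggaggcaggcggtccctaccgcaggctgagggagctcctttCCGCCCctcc
Acan, chr7:79052976-79053225, plus strand: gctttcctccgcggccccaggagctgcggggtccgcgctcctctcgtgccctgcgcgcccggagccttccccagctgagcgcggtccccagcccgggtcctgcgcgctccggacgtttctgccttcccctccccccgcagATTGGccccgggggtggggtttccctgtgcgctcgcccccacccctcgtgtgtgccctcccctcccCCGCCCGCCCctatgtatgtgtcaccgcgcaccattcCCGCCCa
The Cemip window holds a TATA box whose first base lies 29 bases before the start, and 2 GC boxes. The Vcan window holds 1 CCAAT box and 2 GC boxes, and the Acan window 1 CCAAT box and 3 GC boxes, of which 2 overlap. Of the 250 bases, 188 are G or C in Cemip, 156 in Vcan and 186 in Acan. Among 32841 RefSeq promoter windows of this length, 12.4% hold the TATA box, 33.9% the CCAAT box and 32.7% the GC box. An AP-1 motif (TGANTCA), present in 6.75% of windows, was found in none of the 7 members' windows. A match describes the letters and does not show that a factor binds there.

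The clones were also set against each other. Between F5 and G5, 0 members were called by edgeR, 0 by DESeq2 and 0 by limma, and 0 had an unadjusted p under 0.05 by edgeR; 0.258% of all genes were called, 0.190% higher and 0.0680% lower. Against H7, Has2 was the 1 member called in F5 and the 1 member called in G5, lower in both. Of all genes, 17.9% were called between F5 and H7 (9.45% higher, 8.49% lower) and 17.4% between G5 and H7 (8.88% higher, 8.51% lower). The unadjusted p was under 0.05 for 6 members between F5 and H7 and for 4 between G5 and H7. Cemip stood at −2.47 in F5 relative to H7 (adjusted p = 0.0981) and at −1.84 in G5 relative to H7 (adjusted p = 0.214), and Vcan at −0.93 (adjusted p = 0.07) and −0.83 (adjusted p = 0.106). Without the parental library of passage 7 the Vcan differences passed, with adjusted p of 0.0282 in F5 and 0.0472 in G5, and without that of passage 6 the F5 one did (adjusted p = 0.0398). Without the F5 library of passage 7, Has3 passed as higher in G5 than in H7 (0.67, adjusted p = 0.0499).

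Clone libraries of the same passage number deviated together. These comparisons therefore also have a paired form, with the passage number as a block and the 9 clone libraries alone. This form was chosen after seeing the data, and the labels do not give the pairing. Acan did not pass the count filter in the paired form, which left 7 members. In that fit 5 members were called between F5 and H7, beside 42.3% of all genes, and 5 between G5 and H7, beside 40.1%. Cemip was lower in F5 than in H7 by −2.71 (SE 0.16, edgeR adjusted p = 9.27e-07) and in G5 than in H7 by −2.06 (SE 0.16, adjusted p = 3.92e-06).

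Vcan was lower in the same paired comparisons, by −0.95 in F5 relative to H7 (adjusted p = 5.19e-06) and by −0.86 in G5 relative to H7 (adjusted p = 9.39e-06). Has2 was lower by −1.20 (adjusted p = 5.46e-05) and −0.90 (adjusted p = 0.000347), and Hyal1 by −0.76 (adjusted p = 0.0227) and −0.72 (adjusted p = 0.0315). Hyal2 was higher in F5 than in H7 by 0.28 (adjusted p = 0.00588), and Has3 was higher in G5 than in H7 by 0.64 (adjusted p = 0.0242). Cd44 was called in neither. Between F5 and G5 the paired fit called 0 of the 7 members, beside 3.65% of all genes, and the smallest adjusted p was that of Cemip (−0.65, adjusted p = 0.0608).

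Cemip moved with passage. The second of the 3 passages sampled was the highest in F5, G5, H7 and the parental line, a pattern found in 13.2% of tested genes. The second passage stood at 4.44 times the mean of the outer passages in F5, 3.90 times in G5, 2.36 times in H7 and 3.72 times in the parental line, in CPM. With the line as a term, edgeR gave a log2 difference of 1.82 between the middle and the outer passages (SE 0.35, adjusted p = 0.00504), and the call held without each library in turn (1.69 to 2.002).

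Cemip was the 1 member of 8 called in this comparison, in which 27.6% of all genes were called and 13.9% were called higher. An unadjusted p under 0.05 was found for 5 members, Acan among them. Others leaned without passing: Vcan at 0.51 (adjusted p = 0.057), Cd44 at −0.36 (adjusted p = 0.0506) and Has2 at −0.36 (adjusted p = 0.0765). The edgeR value of Acan, −1.42 (adjusted p = 0.0793), is given no weight, since it passed the filter through the parental libraries alone. Without the parental library of passage 7 it was −0.27 (adjusted p = 0.878). Has3 at −0.17, Hyal1 at 0.30 and Hyal2 at −0.14 had adjusted p of 0.275 to 0.482. Leaving out 1 library brought further members past the test. Vcan and Cd44 passed without passage 9 of F5, G5 or H7, and Cd44 without passage 8 of H7. Has2 passed without passage 7 of H7 and without the parental passage 7 (−0.55, adjusted p = 0.0149). Acan, given no weight, also passed without passage 7 or 8 of H7. The ratio of Cemip to Has2 in TPM ran from 0.413 to 4.61 in F5, 0.456 to 6.86 in G5, 1.98 to 8.40 in H7 and 1.83 to 11.3 in the parental line. The source of the passage difference was not tested.

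**Figure D4:**
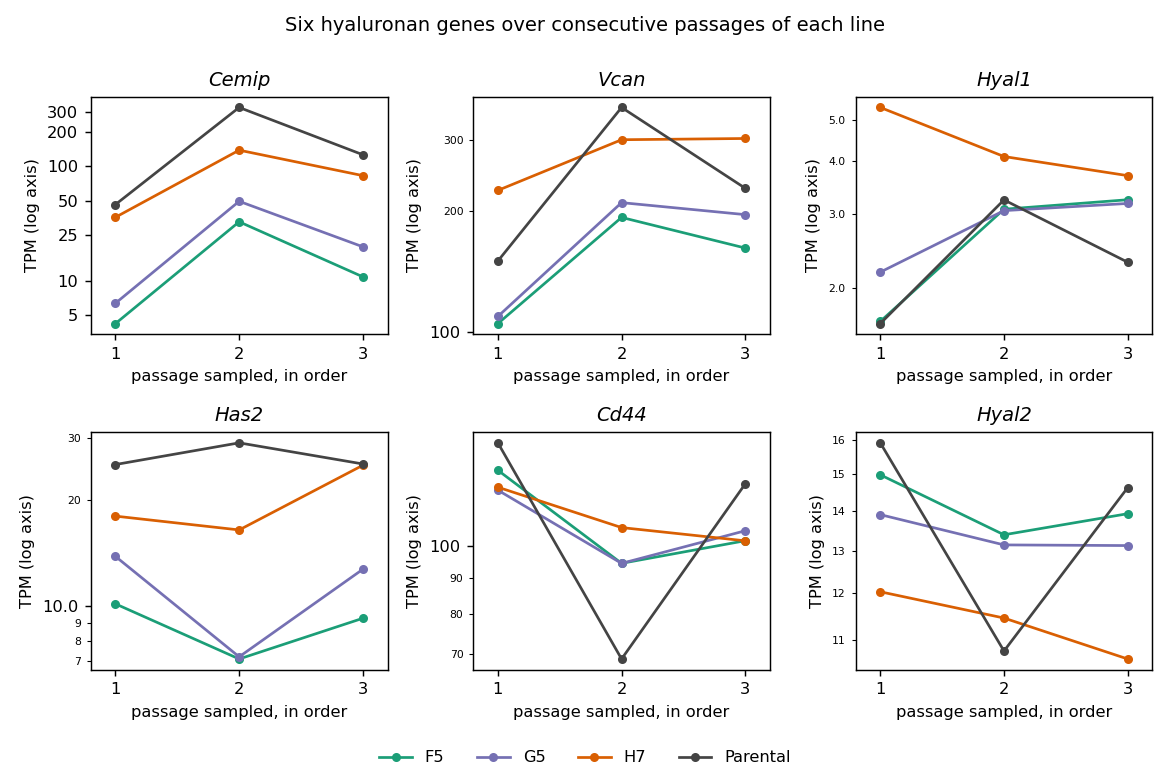
TPM (log axis) of 6 genes in passages 1, 2 and 3, in the order sampled, of F5, G5, H7 and the parental line, with 1 library per point. Cemip peaks at the second passage in all 4 lines, up to 327 TPM in the parental line, and that parental library holds the lowest parental values of Cd44 and Hyal2, 68.9 and 10.8 TPM.

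Genes whose levels ran most like the members called in the mean of the clones were found by the root mean square difference of centred log2 CPM over the 12 libraries, among 11122 genes (11123 for Acan). For Has2 they were Col27a1 (0.24), Igfbp7 (0.31) and Lxn (0.34). Col27a1, a fibrillar collagen, averaged 15.9 ± 2.35 CPM in F5, 14.7 ± 2.16 CPM in G5, 30.8 ± 6.42 CPM in H7 and 51.4 ± 8.26 CPM in the parental line (SD, n = 3 each). For Cemip they were Dkk2 (0.59), Pde8b (0.60) and Pdzk1ip1 (0.63), of which Dkk2, a secreted modulator of Wnt signalling, averaged 2.09 ± 1.63, 2.41 ± 2.60, 10.8 ± 6.31 and 10.2 ± 6.03 CPM in F5, G5, H7 and the parental line. For Acan they were Sumo3 (0.96), Uty (0.99) and Grik2 (1.00), a looser match than for Has2. Acan entered this search by an edgeR call that is given no weight. Its clone libraries held 0 to 5 counts, so its values there depend on the prior count. The match describes little beyond low in the clones and higher in the parental line. Uty, for example, averaged 0.214, 0.187 and 0.142 CPM in F5, G5 and H7, against 9.01 CPM in the parental line.

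Other genes of the same biology were read from lists (each value the clones' mean relative to the parental line, edgeR). Over all tested genes the median was −0.02, and 8.55% were called higher and 10.5% lower. Of 7 genes that make the sugar precursors, all 7 were tested, 1 was higher and 1 lower, with −0.13 as the median log2 fold change. Gnpnat1, an acetyltransferase of the UDP-GlcNAc route, was higher by 0.49 (adjusted p = 0.0203), and Uap1, which makes UDP-GlcNAc itself, was lower by −0.31 (adjusted p = 0.0263). Of 9 further breakdown genes 4 were tested and 1 was lower, with a median of −0.01. That was Cemip2, a membrane protein related to Cemip, at 11.7 ± 0.298 TPM in F5, 13.0 ± 0.633 TPM in G5 and 17.2 ± 0.639 TPM in H7, against 20.7 ± 4.31 TPM in the parental line (SD, n = 3 each). Its log2 fold change was −0.62 (adjusted p = 0.000722), with −0.85 in F5 (adjusted p = 0.000693), −0.74 in G5 (adjusted p = 0.00146) and −0.26 in H7 (adjusted p = 0.117).

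Of 19 further receptors and binding proteins 9 were tested, 1 was higher and 5 were lower, with a median of −1.12. The single clones did not share that median, which was −0.10 in F5, −0.30 in G5 and −0.09 in H7. Called were 3 lower in F5, 2 lower in G5, and 2 higher and 3 lower in H7. Ptx3, a pentraxin of the hyaluronan-rich matrix around the ovulated egg, averaged 30.8 ± 10.95 TPM in F5, 39.1 ± 16.7 TPM in G5, 119.6 ± 38.3 TPM in H7 and 135 ± 90.8 TPM in the parental line (SD, n = 3 each), a log2 fold change of −1.38 (adjusted p = 0.0228). Itih4, of the inter-alpha-trypsin inhibitor heavy chain family, was lower by −1.12 (adjusted p = 0.0203). Hapln4 and Ncan, a link protein and the lectican neurocan, were lower by −1.94 (adjusted p = 0.000129) and −3.15 (adjusted p = 0.00197). Ncan had 0 counts in every H7 library, which allows up to 0.0386 CPM over that group, so its fitted change depends on the prior count. The other called genes of this list, named after their values were seen, were Bcan (brevican), lower by −1.41 (adjusted p = 0.0241), and Itih2, higher by 1.43 (adjusted p = 0.0309). Some of these changes were not common to all clones. In F5, Bcan stood at 0.11 (adjusted p = 0.904) and Ncan at −0.84 (adjusted p = 0.205). Hapln4 was at 4.29 to 5.70 TPM in H7, against 4.68 to 6.05 TPM in the parental line.

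Of 7 proteases that cut versican and aggrecan, 4 were tested and 2 were lower, with a median of −0.60. Adamts9 averaged 0.744 ± 0.336 TPM in F5, 0.732 ± 0.341 TPM in G5 and 0.525 ± 0.121 TPM in H7, against 3.75 ± 4.25 TPM in the parental line (SD, n = 3 each), a log2 fold change of −2.53 (adjusted p = 0.00596). Adamts4 was lower by −0.64 (adjusted p = 0.0317). Of 19 genes of chondroitin sulfate chain synthesis 15 were tested and 3 were lower, Chsy1 (−0.32, adjusted p = 0.0133), Dse (−0.26, adjusted p = 0.0241) and Chpf2 (−0.33, adjusted p = 0.0254), with a median of −0.05. Of the 14 called genes of these lists, 14 kept their call with DESeq2 and 7 with limma on log2(TPM + 1). With the 9 clone libraries as 1 group 5 kept it, and without the parental passage 8 it was 8. When the parental passage 7 was left out, 7 kept their call. The 7 that did not were Adamts9 (−0.92, adjusted p = 0.0724), Adamts4 (−0.28, adjusted p = 0.203), Ptx3 (−0.74, adjusted p = 0.184), Itih4 (−0.90, adjusted p = 0.0972), Bcan (−0.98, adjusted p = 0.127), Gnpnat1 (0.44, adjusted p = 0.0708) and Dse (−0.16, adjusted p = 0.106).

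Fibroblast markers moved as well: 4 of the 10 were lower in the mean of the clones and 0 higher, beside 10.5% and 8.55% of all genes. These were Col3a1 (−1.14, edgeR adjusted p = 0.00338), Prrx1 (−0.46, adjusted p = 0.0093), Col1a1 (−0.46, adjusted p = 0.0161) and Pdgfrb (−0.35, adjusted p = 0.0494). By clone, 3 of the 10 were lower in F5 and 2 in G5, while in H7 1 was lower and 1 higher. Of 2 immune markers tested, Ptprc was lower (−2.28, adjusted p = 0.0146) at no more than 0.180 TPM in any group mean. The other, Cd68, at 4.39 to 7.41 TPM over the libraries, stood at 0.29 (adjusted p = 0.23). Of 2 epithelial markers tested, 1 was higher in H7, beside 9.64% of all genes. Cdh1 had 22, 14 and 21 counts in H7, against 1, 0 and 0 in the parental line. Without the parental library of passage 7, Col1a1 (−0.41, adjusted p = 0.0581), Pdgfrb (−0.17, adjusted p = 0.257) and Ptprc (−1.98, adjusted p = 0.0712) lost their calls. Pdgfrb was also lost without any of the F5 or G5 libraries or the H7 library of passage 7 or 8, 9 of the 12 fits in all (adjusted p of 0.0546 to 0.257). The part of these markers in the hyaluronan gene values was not tested.

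**Figure D5:**
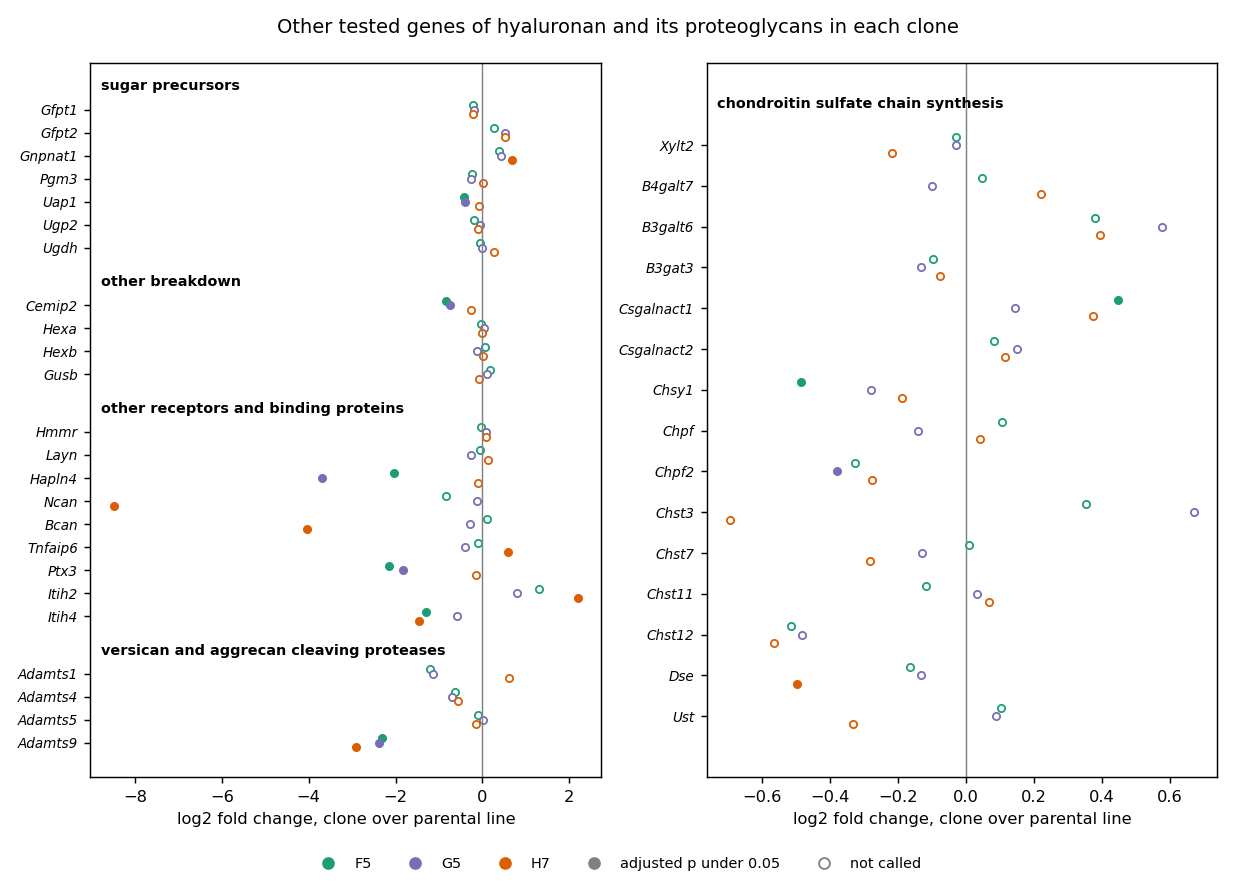
The log2 fold change of each clone over the parental line (x axis, a separate scale in each panel) for the other tested genes of the lists; filled points passed an adjusted p of 0.05 by edgeR. The H7 point of Ncan rests on 0 counts and its place depends on the prior count, and Adamts9 is filled in all 3 clones.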

How the data were processed

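RNA-seq of 12 libraries was used as deposited by the authors: estimated counts per gene, which need not be whole (of those over 0.5, 86.9% were whole to a tolerance of 0.01), and TPM, which sums to 1000000 per library. GRCm38 is the build in the submitters' processing notes, and the labels' protocols describe stranded total RNA libraries with ribosomal depletion. Not given in the sources used here are the aligner, the counter, its annotation and any use of strand. Library totals ran from 22088714 to 31329755 counts, and Rn7s1 and Rn7s2 took 14.4% to 20.0% of TPM. Intervals on counts cover counting error only.

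Counts were rounded and tested with edgeR 4.0.16 in R 4.3.3 (TMM scaling, filterByExpr, quasi-likelihood test, 1 joint fit of the 12 libraries, residual degrees of freedom 8, Benjamini-Hochberg adjustment over 14704 genes, threshold 0.05). The fit was tested on simulated data. Comparisons were each clone, and the clones' mean, with the parental line, the clones against each other, and the middle against the outer passages with the line as a term. DESeq2 1.42.0 and limma 3.58.1 on log2(TPM + 1) or log2(TPM + 0.1) were alternatives, as were other scalings and filters, blocks, removal of chromosome medians and leaving out each library. Levels are TPM, or TMM-scaled CPM where so named. Coordinates come from the GENCODE annotation of GRCm38, and promoters from RefSeq (GRCm38.p6).

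Deviations from group means correlated in all 9 pairs of clone libraries with the same passage number (0.15 to 0.50). In the 6 clone and parental pairs of the same number the correlation was −0.53 to −0.19. Among the clones, passage number and place in the order are the same, so the data do not show which of them pairs these libraries. Over all lines, pairs at the same place in the order correlated at 0.04 to 0.50. The pairing is taken from the data and not from the labels. The members and lists were chosen with earlier results of these data known. Named genes are Aebp1, all members, up to 4 called genes with the smallest adjusted p from each list, and the 3 genes most like each member called in the mean of the clones, by root mean square difference of centred log2 CPM among genes of at least 1 CPM.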

Additional observations from a re-analysis of the deposited data

Results flagged for a closer look

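The effect of clone on Has2 differed between the clones by a test of the difference itself. Has2 was lower in F5 than in H7, with a log2 difference of −1.20 (edgeR adjusted p = 0.00476), and lower in G5 than in H7, with −0.89 (adjusted p = 0.0214). Of all genes, 17.9% and 17.4% were called in these comparisons. All 3 F5 and all 3 G5 libraries lay below all 3 H7 libraries, and the share of genes that separate so was not counted. The G5 to H7 difference lost its call without the G5 library of passage 8 (adjusted p = 0.0516) or the H7 library of passage 9 (adjusted p = 0.0955). It was also lost with chromosome medians removed (−0.49, adjusted p = 0.224). Groups of 3 libraries were not tested for outlying samples, though each library was left out in turn.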

How the results depend on the processing

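Across 64 pairs of member and comparison, 1450 values were computed under alternatives. Of these 1296 kept direction and call, 42 lost a call, 63 gained one, 0 changed sign where the member was called, and 49 changed sign where it was not. Most pairs were not called in the main fit, and a value that stayed uncalled counts as kept. Acan is included, and its calls, given no weight here, held against the parental line under all 23 alternatives. Cemip kept its call under 14 of 23 in the mean of the clones and 15 in F5. In H7, Has3 kept its call under 16 of 23 and Hyal1 under 9. The calls of Has2 in F5 and G5 held under all 23 alternatives run for them, and that of Cemip between passages under all 18. For what moved, the cause was not tested.

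Counts of members called, Acan included, are given with all genes called under the same setting in parentheses. In the mean of the clones the 3 (2800) became 1 (1356) with the 9 clone libraries as 1 group and 2 to 3 (2099 to 2756) with 1 library left out. Those fits gave 2 to 3 in F5 (1226 to 2142), 2 to 3 in G5 (1128 to 2044) and 1 to 3 in H7 (1823 to 2822). Passage numbers do not pair the clones with the parental line, and the passage block gave 1 in H7 (2451) and 3 between F5 and H7 (2621). Libraries at the same place in the order of passages correlated over 0.1 in 16 of 18 pairs. Their block gave 4 in the mean (4908), 4 in F5 (4226), 4 in G5 (3948), 4 in H7 (4808), 4 between F5 and H7 (4603) and 5 between G5 and H7 (4356). The paired fit on clone libraries alone gave 5 (6132) and 5 (5806).

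Between F5 and H7 the 1 (2638) became 2 with DESeq2 (3145), 4 with only the 6 libraries compared (3304), 3 without the middle passages (3042) and 1 to 3 without 1 library (1767 to 3635). Between G5 and H7 the 1 (2557) became 2 with DESeq2 (2999), 3 with 6 libraries (2910), 0 with chromosome medians removed (1747) and 0 to 2 without 1 library (1754 to 3458). For the middle passage the 1 (4061) became 2 without Gm26917, Rn7s1 and Rn7s2 (4070), 3 with no filter (3664), 3 with DESeq2 (4124), 2 (3098) and 2 (3086) with limma on TPM + 1 and TPM + 0.1, and 1 to 3 without 1 library (2296 to 4351).

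Some values near 0 changed sign. In the mean of the clones Cd44 was 0.022 with either limma setting, 0.024 with chromosome medians removed, 0.18 with the passage block, and −0.30 to 0.15 with 1 library left out. Hyal2 there was 0.049 with the passage block and −0.28 to 0.018 with 1 library left out, and Vcan in H7 was −0.21 and −0.054 to 0.56. Called among these was the −0.28 of Hyal2. With limma on log2(TPM + 1), 58.3% of genes called in the mean of the clones were higher, against 44.9% with edgeR, and 66.8% against 49.9% in G5. The mean of the clones has no value for the setting with only 6 libraries, and blocks, chromosome medians and 6 libraries were not run for the middle passage. The fit without middle passages and the paired fit on clone libraries were chosen after seeing the data. Depth limits Has1, with 32 counts in all, and Acan in the clones.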

Other observations

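Link proteins clamp lecticans to hyaluronan, and their genes lie beside lectican genes in the mouse genome. In GRCm38 no protein-coding gene lies between Vcan and Hapln1, Acan and Hapln3, Ncan and Hapln4, or Bcan and Hapln2, with gaps of 43659, 2, 2222 and 21519 bases. Hapln4 averaged 1.21 ± 0.258 TPM in F5, 0.394 ± 0.211 TPM in G5 and 4.94 ± 0.711 TPM in H7, against 5.18 ± 0.753 TPM in the parental line (SD, n = 3 each), and was lower in F5 (log2 fold change −2.04) and G5 (−3.70) by edgeR. Its neighbour Ncan had 82 counts in F5, 121 in G5 and 0 in H7, against 122 in the parental line. Bcan, chosen after its values were seen, had 122 counts in F5, 83 in G5 and 6 in H7, against 96 in the parental line, and was lower in H7 (−4.04, edgeR adjusted p = 0.00101). Hapln1, the neighbour of the abundant Vcan, had 0 counts in every library.

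Of the versican-cutting proteases, Adamts1, Adamts5 and Adamts9 were higher in the middle than in the outer passages, by 0.84 (edgeR adjusted p = 0.00526), 1.15 (adjusted p = 0.00502) and 1.51 (adjusted p = 0.006) on the log2 scale, as was Ptx3 by 0.93 (adjusted p = 0.0102). Without the parental library of passage 7, Adamts9 stood at 0.83 (adjusted p = 0.00799) and Ptx3 at 0.74 (adjusted p = 0.0542). Hmmr, a hyaluronan receptor that is also a mitotic spindle protein, was lower in the middle passages, by −0.38 (adjusted p = 0.00255).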
